A study of Mus musculus with 80 samples.

Results

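The genes described here encode the microfibrils and elastic fibres of the extracellular matrix: the fibrillins *Fbn1* and *Fbn2*, the microfibril-associated proteins *Mfap2*, *Mfap4* and *Mfap5*, the fibulins *Fbln1*, *Fbln2* and *Fbln5*, elastin (*Eln*) and lysyl oxidase (*Lox*). They are 10 of the 25899 genes in the table of expression values, and were followed in muscle stem cells (MuSCs) of extraocular muscles (EOM), which move the eye, and of the *Tibialis anterior* (TA), a muscle of the lower leg. The list was drawn up around *Mfap4*, a gene selected on its measured level, which before grafting was among the strongest of EOM. Every difference between EOM and TA before grafting is therefore given as a description and without a p-value. Where a gene is said to be called in that contrast, the call describes its size and spread and is not read as a test.

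Microfibrils are beaded filaments of fibrillin that lie in the matrix around cells and bind latent TGFβ complexes. Elastin is deposited on them and cross-linked by lysyl oxidase, with fibulins and microfibril-associated proteins bridging the components, which gives tissues their recoil. In skeletal muscle this network belongs to the connective tissue around the fibres, where fibroblasts and fibro-adipogenic progenitors are known as its main source, and MuSCs contribute matrix to their own niche.

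MuSCs were sorted by nuclear GFP from 10 male *Tg:Pax7-nGFP* mice (C57BL/6;DBA2 F1/JRj), aged 7.6 weeks in Experiment 1 and 7 weeks in Experiment 2, whose transgene reports *Pax7*. EOM and TA MuSCs of each donor were put into the opposite TA muscles of the same immunodeficient Rag2-/-;γC-/- recipient, both injured beforehand with cardiotoxin, and GFP-positive cells were sorted again at the time labelled day 21. The 30 libraries compared are 8 EOM pre-graft, 8 TA pre-graft, 7 EOM post-graft and 7 TA post-graft, and 10 others left out by the study's quality control are shown only where named. Pre-graft libraries are labelled with 500 cells, EOM post-graft libraries with a median of 35 and TA post-graft libraries with a median of 26. All grafted cells, TA cells included, passed through sorting, transplantation and an injured host muscle.

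Libraries held 3326270 to 14402975 total reads, with 75.5 to 93.9% of reads in genes. Reads recovered from the log2 values sum to 963432 to 4169357 a library, fewer than that percent of the total. The reason for this gap was not tested. Expression is given as log2 RPM, the log2 of the read share as the authors scaled it to library size. That library size equals neither of these read counts. A gene without a read stands at 0.9 of a read, which is a log2 RPM between -1.67 and 0.48 before grafting and between -1.24 and -0.34 after it. The summed level of 10 MuSC markers (*Pax7*, *Myf5*, *Cdh15* and others) was 8229 to 10881 RPM in EOM pre-graft and 8816 to 13860 in TA pre-graft libraries, against 804 to 9392 in EOM post-graft and 264 to 6734 in TA post-graft libraries. All 10 markers had reads in each group. Marker sums here and below are in RPM of the reads recovered on genes, a scale other than that of the log2 RPM values. Mitochondrial genes took 2.91 to 8.16% of the reads in EOM pre-graft, 3.22 to 22.9% in TA pre-graft, 3.85 to 59.6% in EOM post-graft and 5.45 to 46.8% in TA post-graft libraries.

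**Figure D1:**
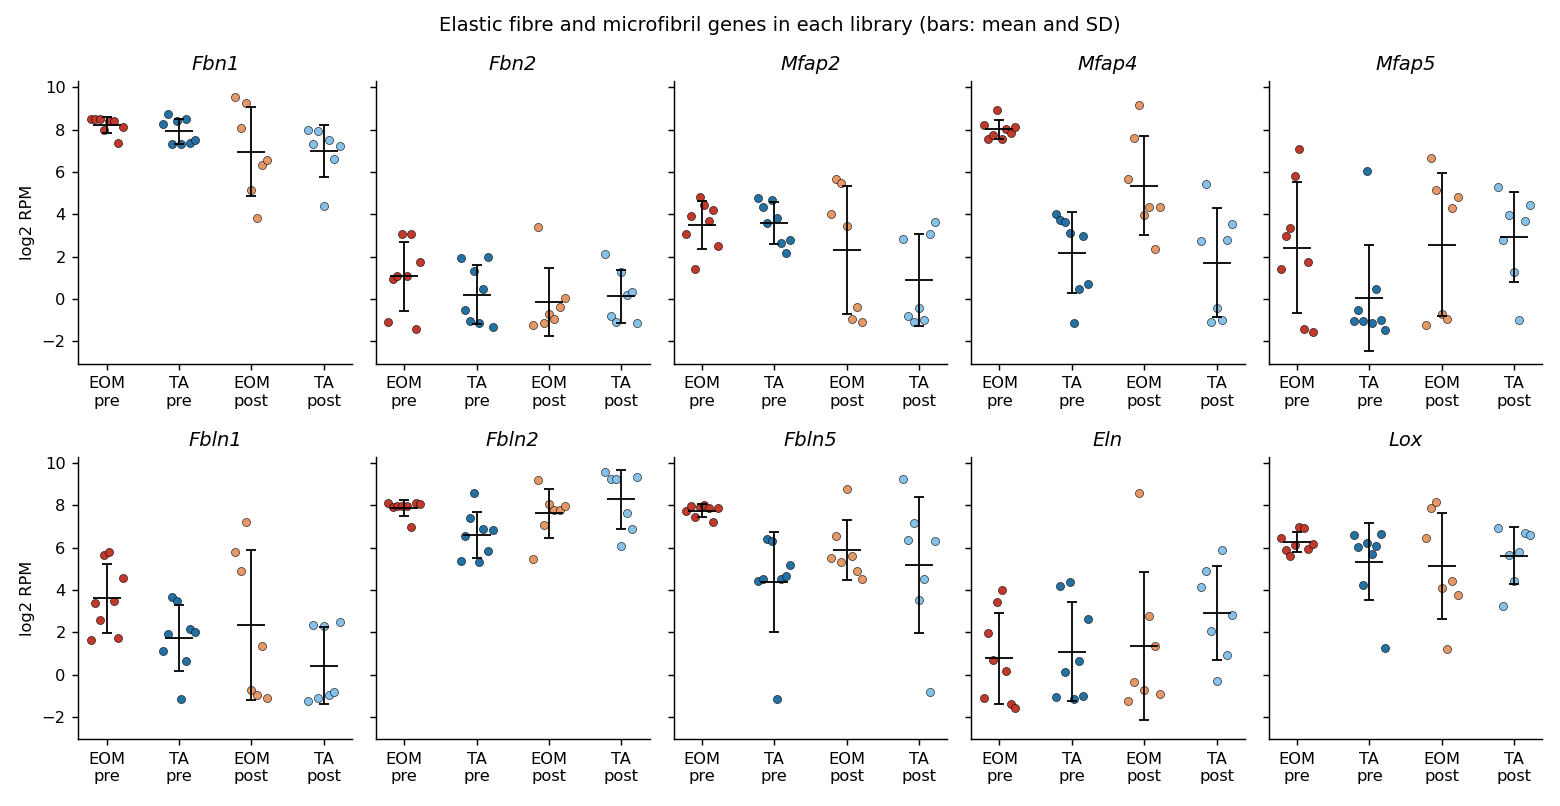
Level of each of the 10 genes (log2 RPM) in every library compared, in 8 EOM and 8 TA libraries before grafting and 7 and 7 after it, with the mean and SD as bars. *Mfap4* and *Fbln5* have no overlap between EOM and TA before grafting, and the spread of *Mfap4* in EOM widens from an SD of 0.44 to 2.33 after grafting.

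Per kilobase of exon, *Mfap4* had the highest mean of the 10 genes in EOM before grafting, at a log2 RPM per kb of 7.07, followed by *Fbln2* (5.21), *Fbln5* (4.97), *Fbn1* (4.62) and *Lox* (4.01). In TA before grafting the order began with *Fbn1* (4.32), *Fbln2* (3.93), *Mfap2* (3.33) and *Lox* (3.09), and *Mfap4* stood at 1.25. *Eln* and *Fbn2* were the lowest in EOM, at -2.24 and -2.66. The neighbours *Fbln2*, *Fbln5* and *Fbn1* in the EOM order differ by no more than the larger of their SDs over libraries, which are 0.29 to 0.40.

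*Mfap4* encodes a glycoprotein with a fibrinogen-like domain that binds fibrillin and tropoelastin. It lies on the plus strand of chromosome 11 (chr11:61485431-61488900, GRCm38). The EOM pre-graft libraries held it at 7.57, 7.58, 7.76, 7.86, 8.02, 8.14, 8.20 and 8.93 log2 RPM, from 293 to 814 reads. The TA pre-graft libraries held it at -1.14, 0.48, 0.70, 2.97, 3.14, 3.65, 3.71 and 4.02, from 0 to 30 reads, with no read in 2 of them. Every EOM library thus lay above every TA library. The mean was 8.01 ± 0.44 (SD, n = 8) in EOM and 2.19 ± 1.91 (SD, n = 8) in TA, a difference of 5.82 ± 0.59 (SE) on the log2 scale. It was 3.98 within Experiment 1, with 3 EOM and 2 TA libraries, and 6.47 within Experiment 2, with 5 and 6. All 7 donors with both libraries showed EOM higher, by 3.87 to 7.54. Of the marker lists of other cells, 5 Schwann cell genes took 11.9 to 1834 RPM in EOM and 2.08 to 288 in TA libraries, and 5 tenocyte genes 7.70 to 78.4 and 0.353 to 26.2, with *Tnmd* at 0 in EOM and *Kera* at 0 in TA. The 11 fibroblast and fibro-adipogenic genes took 1376 to 2590 in EOM and 1340 to 2590 in TA. The part of such cells in the *Mfap4* difference was not tested. The last 89 of the 1922 exon bases of *Mfap4* are shared with *Mapk7* on the opposite strand, and the reads do not keep strand. *Mapk7* itself differed by -0.04 ± 0.40 (SE) between EOM and TA before grafting, with 13 to 155 reads in EOM and 26 to 127 in TA libraries.

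*Fbln5* encodes an elastin-binding fibulin needed for elastic fibre assembly. It was at 7.19 to 8.01 log2 RPM in EOM pre-graft libraries (median 7.88, 322 to 736 reads) and at -1.14 to 6.41 in TA pre-graft libraries (median 4.61, 0 to 190 reads). Here too the lowest EOM library exceeded the highest TA library, by a smaller gap than for *Mfap4*. The difference was 3.39 ± 0.69 (SE), 3.24 within Experiment 1 and 3.45 within Experiment 2, and EOM was higher in 7 of 7 donors. The TA library of mouse 3 of Experiment 2, which held no *Fbln5* read, lowers the TA mean, and without this library the difference was 2.60.

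The other fibulins differed less. *Fbln2*, which binds fibrillin and basement membrane proteins, was at 6.96 to 8.13 log2 RPM in EOM (median 7.96) and at 5.32 to 8.58 in TA (median 6.69). The ranges overlapped, with TA of mouse 2 (8.58) and mouse 1 (7.42) of Experiment 2 above the lowest EOM library, and the difference was 1.28 ± 0.35 (SE), or 0.98 above the median difference of all genes. *Fbln1*, an elastic fibre and basement membrane component, was at 1.66 to 5.78 in EOM and -1.14 to 3.65 in TA, a difference of 1.87 ± 0.75 (SE). Its reads were few, 6 to 157 in EOM and 0 to 27 in TA.

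The bases before the start sites of *Fbln5* and *Fbln1* are shown because these are the members with windows in the RefSeq promoter table (GRCm38.p6) that hold no annotated exon. Windows were found for 5 of the 10 genes. The *Fbln5* window is chr12:101819120-101819369 on the minus strand and the *Fbln1* window is chr15:85205699-85205948 on the plus strand, each 250 bases printed 5′ to 3′ up to the start site, with E-boxes (CANNTG, which reads the same pattern on both strands) in capitals.
Fbln5: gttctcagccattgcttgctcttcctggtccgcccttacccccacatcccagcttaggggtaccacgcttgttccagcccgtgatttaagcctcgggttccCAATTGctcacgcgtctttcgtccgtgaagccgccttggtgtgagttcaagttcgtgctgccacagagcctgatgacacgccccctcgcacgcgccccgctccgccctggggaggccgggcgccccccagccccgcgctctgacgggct
Fbln1: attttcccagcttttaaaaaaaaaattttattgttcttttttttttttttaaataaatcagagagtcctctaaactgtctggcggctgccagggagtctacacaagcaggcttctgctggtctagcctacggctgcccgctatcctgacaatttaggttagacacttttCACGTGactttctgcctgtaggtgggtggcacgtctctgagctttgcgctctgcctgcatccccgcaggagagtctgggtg
Each window holds 1 E-box, 149 bases before the start site in *Fbln5* and 81 in *Fbln1*, and 66.2% of the 32851 windows in the table hold at least 1. The *Fbln5* window has a GC content of 65.2% and 2 matches of GGGCGG on either strand, found in 32.7% of all windows, while the *Fbln1* window has 46.4% and no match. Neither holds TATAAA, found in 12.4% of windows. The median GC content of all windows is 52.4%.

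*Mfap5* and *Mfap2* encode small microfibril-associated glycoproteins that bind fibrillin. *Mfap5* was uneven: in EOM it ran from -1.56 to 7.07 log2 RPM, with 385 reads in mouse 2 and 95 in mouse 1 of Experiment 2 and 0 to 19 in the other 6 libraries. In TA it had reads only in mouse 2 of Experiment 2, with 156 reads (6.03), and none in the other 7 libraries. The difference was 2.38 ± 1.21 (SE). EOM of mouse 2 of Experiment 2 also had the highest summed macrophage markers, 1018 RPM against a group median of 21.7, and TA of mouse 2 the highest endothelial sum, 1364 RPM against a median of 160. The fibroblast and fibro-adipogenic sum was near the median in both, 2158 RPM against 2122 in EOM and 1796 against 1618 in TA. In EOM of mouse 1 of Experiment 2 this sum was 2590 RPM, the highest of the group. The part of such cells in these values was not tested. *Mfap2* was alike in level, at 3.51 ± 1.13 (SD, n = 8) in EOM and 3.60 ± 0.99 (SD, n = 8) in TA, a difference of -0.09 ± 0.54 (SE).

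The fibrillins, the backbone of the microfibril, did not separate the muscles by more than their spread. *Fbn1* was at 7.36 to 8.51 log2 RPM in EOM (390 to 968 reads) and 7.31 to 8.72 in TA (230 to 814 reads), with a difference of 0.30 ± 0.23 (SE), the same as the median of all genes. *Fbn2* had at most 22 reads in any pre-graft library. *Eln* had at most 49 reads, in 5 of 8 EOM and 5 of 8 TA libraries, and differed by -0.32 ± 1.00 (SE). *Lox*, which cross-links elastin and collagen, was at 5.60 to 6.96 in EOM and 1.28 to 6.63 in TA, a difference of 0.92 ± 0.55 (SE), and its lowest TA library was mouse 6 of Experiment 2, with 6 reads.

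A gene is called below when its adjusted p is under 0.05 and its log2 difference is beyond 1 in size, in a limma fit of every gene whose log2 RPM exceeded 1 in 4 or more libraries. Before grafting 3 of the 10 genes, *Mfap4*, *Fbln5* and *Fbln2*, were called higher in EOM and 0 lower, where 3.31% of the 13217 genes tested were called higher and 1.26% lower. The groups did not overlap for *Mfap4* and *Fbln5*, as for 2.28% of all genes. The rule used this contrast, so nothing is read from these counts. The median difference of all genes was 0.30, and setting the library medians equal ended the call of *Fbln2* (1.04) and left those of *Mfap4* (5.58) and *Fbln5* (3.15). *Fbln2* was not called in edgeR (0.56) or DESeq2 (0.54) either, and DESeq2 called *Mfap5* (5.20), which edgeR did not (1.19).

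The comparison of EOM with TA after grafting asks whether the difference is still there when both have lived in the same host muscle. The level that chose *Mfap4* was measured in other libraries, but the list as a whole was drawn up with earlier results of these data known. *Mfap4* was at 2.36, 3.96, 4.33, 4.35, 5.67, 7.60 and 9.17 log2 RPM in the EOM grafts, from 6 to 1142 reads. In the TA grafts it was at -1.10, -0.97, -0.44, 2.74, 2.81, 3.54 and 5.45, from 0 to 69 reads. All 7 EOM grafts held *Mfap4* reads and 3 of the 7 TA grafts held none, and the ranges overlapped between 2.36 and 5.45. The means were 5.35 ± 2.33 (SD, n = 7) and 1.72 ± 2.56 (SD, n = 7), a difference of 3.63 ± 1.10 (SE), about 12.4-fold. It did not pass the adjustment over 12377 genes (limma, p = 0.00214, adjusted p = 1.000). The exact permutation test of this gene alone, two-sided and unadjusted over 3432 splits, gave p = 0.0186, among 10 genes so tested. It did not keep the libraries of a donor paired. EOM was higher in 5 of 6 donors with both grafts, by -0.45 to 10.27, and the difference was 2.93 within Experiment 1, with 1 library a muscle, and 3.75 within Experiment 2, with 6 and 6. Leaving out each library in turn gave 2.99 to 4.25. The EOM grafts with the highest *Mfap4*, mouse 2 (9.17) and mouse 1 (7.60) of Experiment 2, also had the highest sums of the 5 tenocyte genes among EOM grafts, 367 and 334 RPM against a median of 22.7, with *Kera* at 0 in all EOM grafts. The tenocyte sum ran from 0 to 367 in EOM grafts and from 0 to 641 in TA grafts. The fibroblast sum of mouse 1 was 8358 RPM against a median of 1464, the highest of the EOM grafts. The part of such cells in the difference was not tested. Of the 3 TA grafts that failed quality control, those of mouse 4 and mouse 5 of Experiment 1 held *Mfap4* at 7.49 (264 reads) and 6.64 (24 reads), above all 7 that passed, and the difference over all libraries was 2.92.

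**Figure D2:**
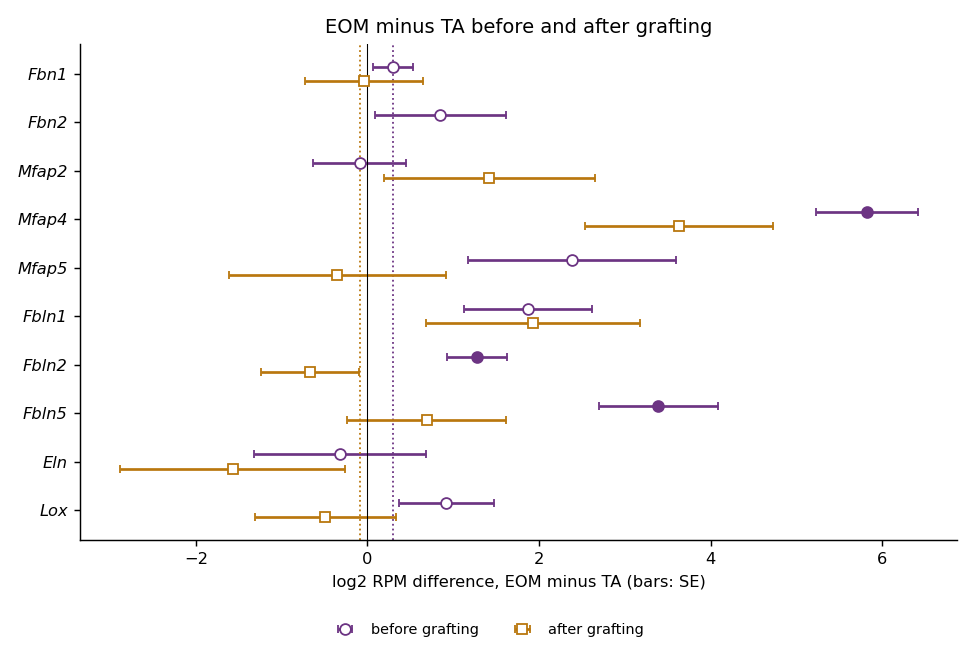
Difference EOM minus TA in log2 RPM for each gene before (circles) and after grafting (squares), with the SE as bars, filled where the gene was called and with the median of all genes dotted. *Mfap4* stands at 5.82 before and 3.63 after grafting, *Fbln5* at 3.39 and 0.69, and *Fbln2* changes from 1.28 to -0.67. *Fbn2* was not tested after grafting and has no square.

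None of the other 8 members tested passed the test after grafting either. *Fbln5* was at 4.53 to 8.76 in EOM grafts and -0.80 to 9.25 in TA grafts, a difference of 0.69 ± 0.93 (SE; limma, adjusted p = 1.000). *Fbln1* was 1.93 ± 1.25 (SE) higher in EOM grafts, with no read in 3 EOM and 4 TA grafts. *Fbln2* differed by -0.67 ± 0.57 (SE), *Fbn1* by -0.04 ± 0.69 (SE), *Mfap5* by -0.35 ± 1.26 (SE), *Lox* by -0.49 ± 0.82 (SE) and *Mfap2* by 1.42 ± 1.23 (SE). *Eln* differed by -1.57 ± 1.31 (SE), and EOM of mouse 2 of Experiment 2 held the highest level of all, 8.58 (757 reads). *Fbn2* did not pass the filter and had at most 12 reads. Of the 9 members tested, 0 were called in either direction, and of all genes 0% were called higher and 0% lower in limma, with 452 genes at an unadjusted p under 0.05. edgeR called 0 genes and DESeq2 3, none of them a member. The groups did not overlap for 0 members and for 0.0162% of all genes.

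Under the authors' scaling, grafting shifted the whole scale. The median difference of all genes tested, post-graft minus pre-graft, was -1.48 in EOM and -1.09 in TA. Changes are therefore given also relative to these medians. Scaled without mitochondrial genes the median differences were -0.41 and -0.30, and in edgeR they were -0.08 and -0.08. For a marker, less RNA per cell and fewer cells of a type cannot be told apart in such libraries. The sums of markers of vessel cells were higher after grafting: 6 endothelial genes took 63.6 to 377 RPM in EOM and 10.6 to 1364 in TA libraries before grafting, against 125 to 3319 and 795 to 4043 after it. The 8 smooth muscle and pericyte genes took 371 to 644 and 267 to 1299 before, against 260 to 4602 and 277 to 5913 after. All 6 and all 8 had reads in each group. The fibroblast and fibro-adipogenic genes took 776 to 8358 in EOM and 642 to 2647 in TA libraries after grafting. Their part in the changes below was not tested.

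**Figure D3:**
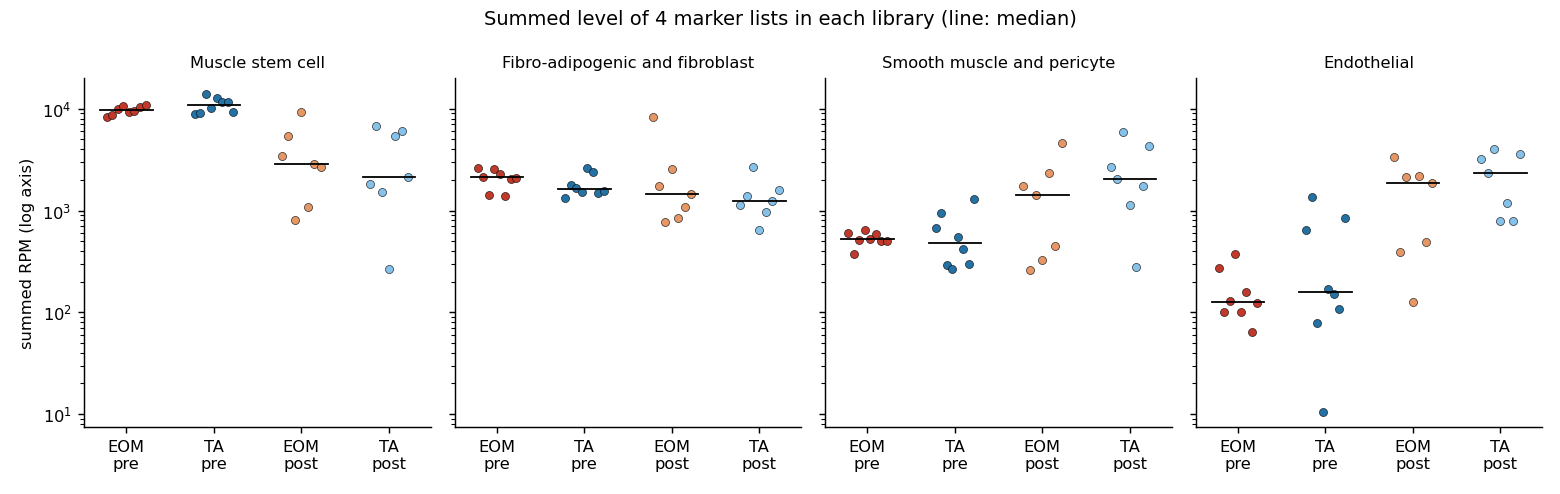
Summed RPM (log axis) of the lists of MuSC, fibroblast, smooth muscle and pericyte, and endothelial markers in each of the 30 libraries, with a line at the median of each group. The MuSC sum has a median of 9694 in EOM and 10969 in TA before grafting and 2887 and 2145 after it, and the endothelial sum goes from 126 and 160 to 1855 and 2325.

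In TA cells, *Fbln2* and *Mfap5* were called higher and *Mfap2* lower on grafting. *Fbln2* went from 5.32 to 8.58 log2 RPM (median 6.69) before to 6.07 to 9.58 (median 9.23) after it, with up to 1603 reads. It was higher after grafting in 7 of 7 donors, by 0.65 to 4.20, although the ranges of the groups overlap. The difference was 1.68 ± 0.54 (SE; limma, adjusted p = 0.0203), 2.77 above the median of all genes. It was 3.61 within Experiment 1, with 1 graft, and 1.25 within Experiment 2, where it was no longer called (adjusted p = 0.123). edgeR (2.24) and DESeq2 (2.35) on recovered reads also called it.

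*Mfap5* was at 1.30 to 5.28 log2 RPM in 6 TA grafts, with 3 to 81 reads, and without a read in the TA graft of mouse 4 of Experiment 2, while 7 of the 8 TA libraries before grafting held none. The difference was 2.88 ± 1.06 (SE; limma, adjusted p = 0.0382), with TA higher after grafting in 5 of 7 donors. The call was lost when any of 12 of the 15 libraries was left out, with an adjusted p of up to 0.0718. The exceptions were the TA grafts of mouse 3 and mouse 4 and TA of mouse 2 before grafting, all of Experiment 2. The call was also lost in edgeR, in DESeq2 and with no filter (limma, adjusted p = 0.0691). *Mfap5* passed the filter through the TA grafts, where it was high, so nothing is read from the call. *Mfap2* had reads in all 8 TA libraries before grafting (2.16 to 4.76, 4 to 62 reads) and in 3 of 7 after it (2.84, 3.05 and 3.66). The difference was -2.71 ± 0.89 (SE; limma, adjusted p = 0.0234), or -1.63 relative to all genes, and it was not called with library medians set equal (adjusted p = 0.166), nor in edgeR or DESeq2. It was lower in 5 of 7 donors.

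The other members did not pass the test in TA. *Eln* had a difference of 1.83 ± 1.06 (SE; limma, adjusted p = 0.163), with reads in all 7 grafts and in 5 of 8 libraries before. *Fbn1* differed by -0.92 ± 0.44 (SE), lower in 7 of 7 donors (-2.92 to -0.00) but 0.17 above the median of all genes. *Fbln5* differed by 0.82 ± 1.10 (SE), *Lox* by 0.27 ± 0.69 (SE), *Mfap4* by -0.47 ± 1.05 (SE), *Fbln1* by -1.30 ± 0.88 (SE) and *Fbn2* by -0.09 ± 0.73 (SE). Thus 2 of the 10 members were called higher and 1 lower, where 3.79% of the 13076 genes tested were called higher and 30.9% lower. The ranges overlapped for all 10 members, and did not for 5.19% of all genes. The members' median difference was 0.09 against -1.09 for all genes, and 8 of 10 lay above that median. Before grafting, 7 of 8 TA libraries held no read of *Mfap5*, 4 none of *Fbn2*, 3 none of *Eln* and 2 none of *Mfap4*. A value at that floor cannot fall, so nothing is read from this count.

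In EOM cells, *Mfap4* and *Fbln5* fell under the authors' scaling. The EOM values of *Mfap4* given above correspond to a difference of -2.66 ± 0.69 (SE; limma, adjusted p = 0.00425). *Mfap4* was chosen for its high level in these same EOM pre-graft libraries, which favours a fall, so nothing is read from this p. *Mfap4* was lower in 5 of 6 donors, with a change of -5.50 to 1.59. The exception was mouse 2 of Experiment 2, which went from 7.58 to 9.17. The EOM graft of this mouse also held *Fbn1* at 9.26 and *Eln* at 8.58, with a fibroblast marker sum of 1722 RPM against a group median of 1464 and a tenocyte marker sum of 367 RPM against a group median of 22.7. *Fbln5* went from 7.19 to 8.01 before to 4.53 to 8.76 (median 5.51) after grafting, a difference of -1.87 ± 0.46 (SE; limma, adjusted p = 0.00297), and was lower in 6 of 6 donors (-3.36 to -1.40). Its highest graft, mouse 3 of Experiment 2 at 8.76 (637 reads), has no passing EOM library before grafting. Both calls were lost with library medians set equal, where the differences were -1.41 (adjusted p = 0.145) and -0.63 (adjusted p = 0.455), and in edgeR, which gave -0.30 and 0.29. DESeq2 gave -0.24 for *Mfap4* and -0.97 for *Fbln5*, whose adjusted p of 0.0128 passed while its size fell short of 1. Relative to all genes the changes were -1.18 and -0.40.

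**Figure D4:**
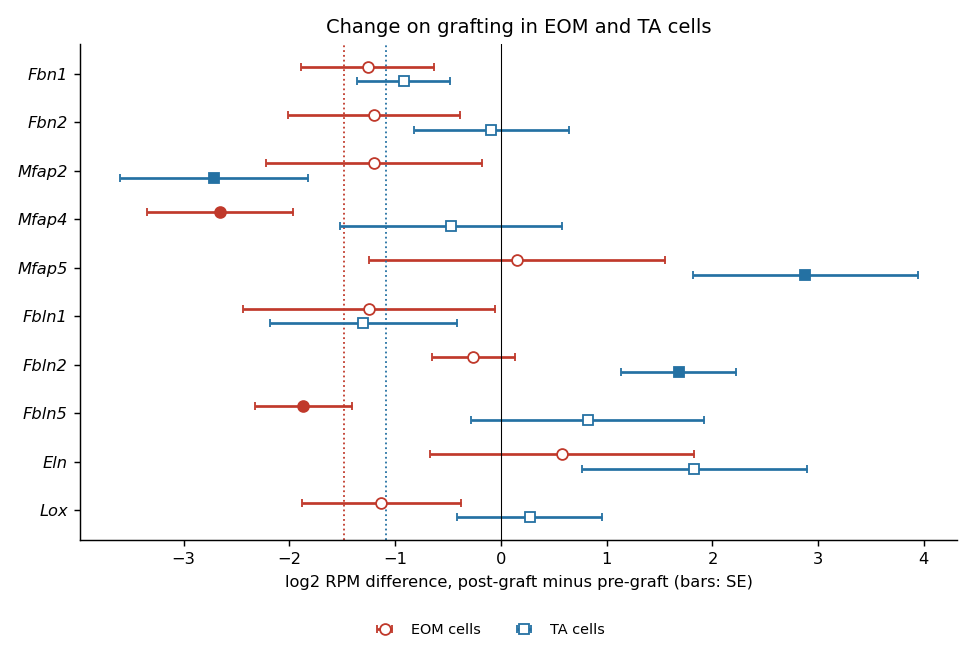
Change on grafting (post-graft minus pre-graft, log2 RPM) of each gene in EOM cells (circles) and TA cells (squares), with the SE as bars, filled where called and with the median of all genes dotted at -1.48 for EOM and -1.09 for TA. *Mfap4* and *Fbln5* lie to the left of the EOM median, and *Fbln2*, *Mfap5* and *Eln* to the right of the TA median.

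None of the other 8 members was called in EOM cells. *Fbln2* differed by -0.26 ± 0.39 (SE; limma, adjusted p = 0.559), which is 1.22 above the median of all genes, and both edgeR (1.25) and DESeq2 (1.37) called it higher. *Fbn1* differed by -1.26 ± 0.63 (SE), with grafts spread from 3.85 to 9.54, and *Lox* by -1.13 ± 0.75 (SE), with grafts from 1.20 to 8.14. *Mfap2*, *Fbln1* and *Fbn2* differed by -1.20, -1.25 and -1.20, 0.23 to 0.27 above the median of all genes. *Mfap5* (0.15 ± 1.40, SE) and *Eln* (0.58 ± 1.25, SE) varied most. So 2 of 10 members were called lower and 0 higher, where 55.8% of the 13094 genes tested were called lower and 3.51% higher. Before grafting, 3 of 8 EOM libraries held no read of *Eln*, 2 none of *Fbn2* and 1 none of *Mfap5*. A value at that floor cannot fall, so nothing is read from this count. The ranges overlapped for all 10 members, and did not for 11.3% of all genes.

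**Figure D5:**
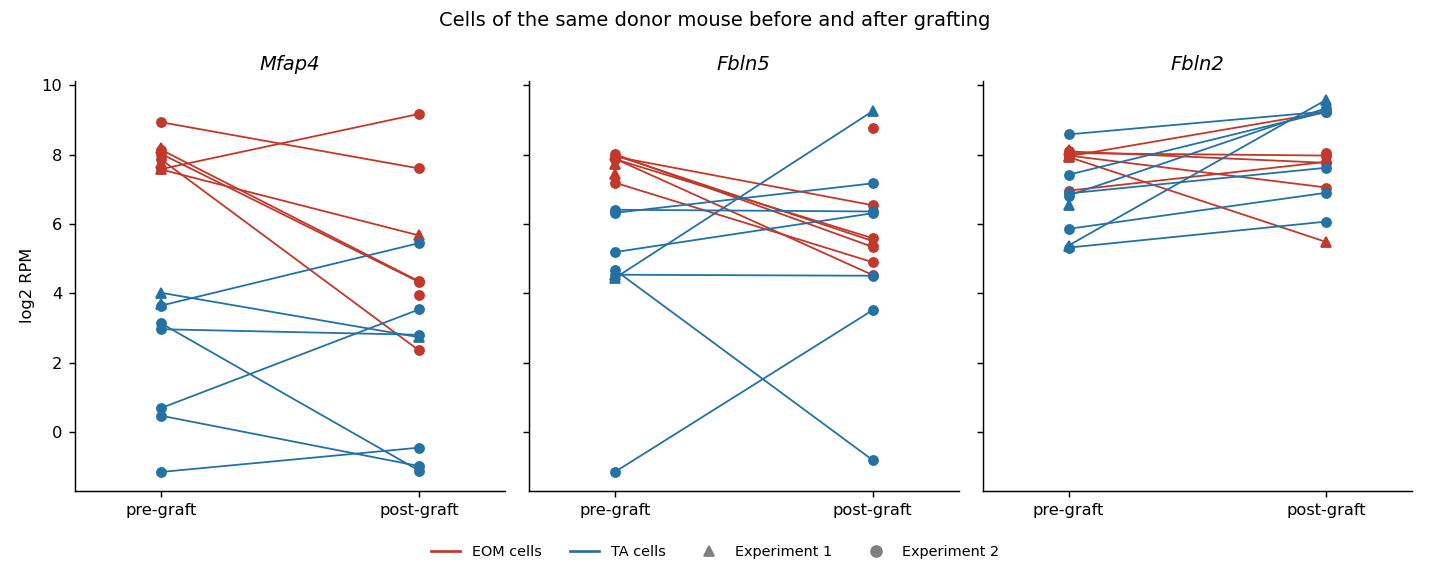
Level of *Mfap4*, *Fbln5* and *Fbln2* (log2 RPM) before and after grafting, with lines joining the cells of the same donor, triangles for Experiment 1 and circles for Experiment 2. *Fbln5* falls in 6 of 6 EOM donors and *Fbln2* rises in 7 of 7 TA donors, while *Mfap4* in EOM falls in 5 of 6.

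The study corrected post-graft levels by the mean change in TA, and the same was done here, as a description since the pre-graft contrast enters it. On a scale from 0 (mean of TA pre-graft) to 100 (mean of EOM pre-graft), the corrected EOM grafts stood at 62.4 for *Mfap4* and 20.4 for *Fbln5*. *Fbln1* stood just past the EOM mean, *Mfap5* at -14.8 and *Fbln2* at -52.2, beyond the TA mean. The change in EOM cells less that in TA cells was -2.19 ± 1.28 (SE) for *Mfap4*, -2.69 ± 1.32 (SE) for *Fbln5*, -1.94 ± 0.71 (SE) for *Fbln2* and 0.05 ± 1.53 (SE) for *Fbln1*. For *Mfap5* the same difference was -2.73 ± 1.84 (SE). The SEs of *Mfap4* and *Fbln1* are wide against the changes themselves. Before grafting, 2 of 8 TA libraries held no read of *Mfap4* and 7 of 8 none of *Mfap5*, so the TA changes rest partly on the floor. The TA change of *Mfap4* was -0.47 here but 1.08 in edgeR and 1.24 in DESeq2, so its position depends on the scaling.

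Other genes of the system were counted in lists drawn up with earlier results of these data known. Of 28 genes of assembly and binding partners, which include latent TGFβ-binding proteins, emilins, lysyl oxidase-like enzymes and proteoglycans, 24 were tested before grafting, 7 were called higher in EOM and 2 lower (3.31% and 1.26% of all genes), and their median difference was 0.78 against 0.30 for all genes. The largest differences were those of *Dcn*, *Vcan*, *Efemp1* and *Mmrn2*. *Vcan* (versican, a large proteoglycan that binds fibrillin and fibulins) was at 5.93 to 7.59 in EOM and -1.45 to 4.24 in TA. *Dcn* (decorin, a small collagen-binding proteoglycan) was at 4.49 to 9.13 in EOM and -1.45 to 9.98 in TA, with a TA median of -0.18, and its difference of 5.62 ± 1.24 (SE) in limma was 0.13 in edgeR. *Efemp1*, another fibulin, differed by 3.63 ± 0.94 (SE), and by 0.23 in edgeR. *Mmrn2*, an emilin-family protein of endothelial cells, differed by -2.70 ± 1.15 (SE).

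After grafting, 0 of 23 genes of this list were called between EOM and TA. On grafting, 3 of 23 were called higher and 12 lower in TA, and 1 of 24 higher and 15 lower in EOM, with medians of -1.37 and -1.93 against -1.09 and -1.48 for all genes. Of all genes, 3.79% were called higher and 30.9% lower in TA, and 3.51% higher and 55.8% lower in EOM, so the count called lower in EOM is near the share of all genes. *Hmcn2* (hemicentin 2, a large fibulin-family protein) fell by 3.88 in TA (limma, adjusted p = 1.70e-04) and by 5.00 in EOM (limma, adjusted p = 3.08e-04), and both calls held in edgeR and DESeq2 and with library medians set equal. *Loxl2*, a lysyl oxidase-like enzyme, fell by 3.66 in EOM (limma, adjusted p = 5.08e-05), from 6.42 to 7.85 before to 1.02 to 4.56 after it. *Dcn* rose by 6.56 in TA (limma, adjusted p = 0.00369), not called in edgeR or DESeq2, and *Mmrn2* rose by 4.30 in EOM (limma, adjusted p = 0.00275), called in both. The remaining genes named by the rule fell. In TA the differences were -3.93 for *Emilin2*, -3.18 for *Ltbp3*, -2.78 for *Loxl3* and -2.65 for *Adamts10*, and in EOM they were -4.21 for *Emilin2* and -3.00 for *Loxl1*. Of these, with library medians set equal, *Loxl3* and *Loxl1* were no longer called, and edgeR called *Emilin2* in TA and none of the others. DESeq2 called *Emilin2* (-5.23) and *Adamts10* (-1.19) in TA and none of the others.

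Of 8 integrin receptor genes, 0 were called between EOM and TA in either state, out of 6 tested before and 8 after grafting, and 0 of 7 were called in TA on grafting. In EOM 2 of 6 were called lower, where 55.8% of all genes were. The receptor with the largest change was *Itga8*, a subunit that binds nephronectin and fibronectin. It fell by 3.40 (limma, adjusted p = 0.00238) and was not called with library medians set equal. *Itga8* was not called in edgeR (-1.92) and was called in DESeq2 (-1.86).

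The genes whose level was most like *Mfap4* over the 30 libraries, by Pearson's r among 14427 genes, were *Alx4* (0.82), *Vcan* (0.80), *Tgfbi* (0.78), *Bgn* (0.77), *Sdc1* (0.76), *Pcdh9* (0.76), *Dmrta2* (0.74) and *Lbp* (0.73). *Alx4*, a homeobox gene of craniofacial development, had a mean of 5.41 in EOM and -0.58 in TA before grafting, and 2.94 and -0.92 after it. *Tgfbi*, a TGFβ-induced matrix protein, had 5.44 and 2.81, and then 5.30 and 1.92. Over the 14 post-graft libraries alone r was 0.53 to 0.84 for these 8. Of the members, *Fbln1* came nearest (r = 0.67, rank 34), then *Fbln5* (0.54, rank 333) and *Mfap2* (0.47, rank 902), while *Eln* (-0.00) and *Fbln2* (0.23) followed it least. The libraries share groups and scaling, so these values are a description.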

How the data were processed

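RNA was measured in 40 libraries, and the 40 bisulfite libraries were not analysed here. According to the study's methods, the authors trimmed reads with Trim Galore (0.4.4), aligned them to GRCm38 with HISAT2 (2.1.0) and quantified them in SeqMonk. The deposited expression table holds log2 RPM values. The deposited library summaries hold counts of total reads and the percent of reads in genes, exons and mitochondrial genes. The annotation release is not given in the sources used here.

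Rows that repeat a symbol were dropped in favour of the row with more reads (25899 of 25965 kept). Reads were recovered from the log2 values, and 99.9969% came out whole within 0.1 of a read. Libraries that passed the study's quality control (over 500000 reads, 70% in genes and 65% in exons) were compared. Of the 10 left out, 1 passes these limits. Replicates are donor mice.

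The members and lists were chosen with earlier results of these data known. Genes named are the 10 members, listed genes called (at most 6 a comparison; the 4 largest before grafting) and the 8 most like *Mfap4*. limma 3.58.1 in R 4.3.3 gave the differences, with a trend and no covariate, on genes above log2 RPM 1 in at least 4 libraries. p-values are two-sided, adjusted by Benjamini-Hochberg over all genes tested. Alternatives were edgeR 4.0.16 and DESeq2 1.42.0 on recovered reads and those in the closing section. The fits were tested on simulated data.

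EOM and TA cells of 1 donor entered the same recipient, so the labels pair libraries by mouse. Deviations of same-donor libraries from their group means correlated across genes at a median of 0.05 between muscles before and 0.05 after grafting, and of 0.01 in TA and -0.04 in EOM between stages.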

Additional observations from a re-analysis of the deposited data

Results flagged for a closer look

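Over the 40 pairs of a member and a group, 9 held a library far from the others of its group. The pairs share libraries, and in some most libraries held no read, as for *Mfap5* in TA before grafting. The count is therefore not set against chance. Before grafting, *Mfap4* stood at 8.93 in EOM of mouse 1 of Experiment 2, against 7.57 to 8.20 in the others. *Fbn1* stood at 7.36 in EOM of mouse 5 of Experiment 2, against 7.99 to 8.51, and *Fbln2* at 6.96 in EOM of mouse 4 of Experiment 2, against 7.93 to 8.13. In TA before grafting, *Mfap5* stood at 6.03 in mouse 2 of Experiment 2, against at most 0.48, *Fbln5* at -1.14 in mouse 3, against 4.44 to 6.41, and *Lox* at 1.28 in mouse 6, against 4.26 to 6.63.

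After grafting, *Fbn1* stood at 4.41 in TA of mouse 3 of Experiment 2 (26 reads), against 6.62 to 7.96. *Fbn2* stood at 3.39 in EOM of mouse 1 of Experiment 2 (12 reads), against at most 0.07, and *Eln* at 8.58 in EOM of mouse 2 of Experiment 2 (757 reads), against at most 2.79.

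For some genes, libraries left out by quality control exceeded every library of their group that passed, values without a read aside. In TA grafts of Experiment 1 these were *Mfap4* at 7.49 (mouse 4) and 6.64 (mouse 5), *Fbn1* at 8.34 (mouse 5), *Fbln1* at 3.33 (mouse 1) and 5.75 (mouse 5) and *Lox* at 7.05 (mouse 4). *Fbn2* stood at 2.33 in mouse 1, on 9 reads. Before grafting, *Eln* stood at 4.80 in TA of mouse 1 of Experiment 1 and *Fbln2* at 8.27 in EOM of mouse 3 of Experiment 2. These libraries enter no comparison of the report except those named as over all libraries.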

How the results depend on the processing

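With the donor as a replicate block, no call of a member changed in the 4 comparisons. *Mfap4* after grafting was then 3.75 and *Mfap5* turned to 0.68, and the Experiment 1 grafts, which share no donor, did not contribute to that fit. Without each library in turn, chosen after seeing the data, 1 to 2 members were called higher and 1 lower in TA on grafting, 2 to 4 lower in EOM on grafting (4 without the EOM graft of mouse 2 of Experiment 2), 3 higher before grafting and 0 in the other cases.

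Experiment 2 alone called 1 member higher before grafting (*Mfap4*), and 0 higher and 0 lower in TA on grafting. In TA on grafting, 1 was called higher in edgeR, DESeq2, with no filter and over all libraries, and 0 lower in edgeR, DESeq2, with median centring and when scaled without mitochondrial genes. In EOM on grafting, 0 were called lower under these same 4 settings, and 1 higher in edgeR and DESeq2 (*Fbln2*). The exact permutation of labels after grafting left *Mfap4* as the member with p under 0.05. This permutation did not keep donors paired and was not adjusted over the members. *Mfap5* before grafting was 5.20 in DESeq2.

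Some differences turned sign under other settings, and edgeR and DESeq2 did not always share a sign. After grafting, EOM against TA, edgeR gave 1.48 for *Eln*, 0.51 for *Fbn1*, 0.25 for *Lox* and 0.93 for *Mfap5*. DESeq2 gave -1.16 for *Fbln5*, 0.55 for *Fbn1*, 0.29 for *Lox* and 0.96 for *Mfap5*. *Eln* stayed negative in DESeq2 (-2.27) and with median centring (-1.46). *Fbn1* was 0.08 with median centring, 0.02 without mitochondrial genes and 0.12 over all libraries, and *Mfap5* was 0.68 in Experiment 2. In TA on grafting, *Mfap4* was 0.42 with median centring, 0.31 without mitochondrial genes, 1.08 in edgeR and 1.24 in DESeq2, and *Fbn2* was 0.81, 0.70, 0.99 and 1.29 in the same order and 0.07 with log2(RPM + 1), while *Fbln1* was 0.23 in DESeq2. In EOM on grafting, median centring gave 0.00 for *Fbln1*, 0.99 for *Fbln2*, 0.05 for *Fbn2*, 0.12 for *Lox* and 0.05 for *Mfap2*. edgeR gave 1.36 for *Fbln1*, 1.25 for *Fbln2*, 0.29 for *Fbln5*, 0.44 for *Fbn1*, 0.95 for *Lox* and 1.04 for *Mfap2*, and DESeq2 gave 1.39 for *Fbln1*, 1.37 for *Fbln2*, 0.49 for *Fbn1*, 1.01 for *Lox* and 1.11 for *Mfap2*. *Fbln2* was also 0.80 without mitochondrial genes and 0.17 in Experiment 2, and over all libraries, which include an EOM pre-graft library of 302 reads, *Eln* was -0.50 and *Mfap5* -1.73. The cause was not tested.

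In EOM grafts *Mfap4* fell by 1.59 without mitochondrial genes and by 0.24 in DESeq2, and was not called. *Fbn2* and *Eln* rest on few reads in most libraries, which limits their precision, and Experiment 1 holds 1 graft a muscle.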
